A study of Brachypodium distachyon with 12 samples.

Results

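The chromosome 3 aromatic amino acid decarboxylase cluster of Brachypodium distachyon, a small temperate grass related to wheat and barley, consists of 5 genes within 61.5 kb. They were taken as the 5 genes of the deposited count table that lie between positions 13226182 and 13287725 of chromosome 3 and are described as aromatic-L-amino-acid decarboxylases, out of 39068 genes in the table. All 5 passed the filter on low counts, which left 26463 genes for testing. The 4 groups are roots (whole roots) of 4 weeks and of 2 weeks and shoots of 4 weeks and of 2 weeks, each with 3 libraries from different plants. They are called week 4 or week 2 roots and shoots here. All plants were wild type (WT) of the Bd21-3 line and grew hydroponically in culture vessels, 2 seedlings to a vessel with 40 mL of medium, with a 16 h day and an 8 h night at 22 °C and a humidity of 50%. The series title concerns how plants make dopamine. Plants of the 2 ages were harvested at different times, so age and harvest cannot be told apart.

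Aromatic amino acid decarboxylases use pyridoxal phosphate to remove the carboxyl group of tryptophan, tyrosine or DOPA, which gives tryptamine, tyramine or dopamine. Plant members of the family are named tryptophan, tyrosine or DOPA decarboxylase by sequence, and the name alone does not settle the substrate. In rice, tryptophan decarboxylase supplies the tryptamine from which serotonin is made, and serotonin accumulates in senescing and infected leaves. The 5 genes share 1 best-match description here, so the names do not separate them, and their activities were not measured.

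The cluster has a tight part and a distant end. BdiBd21-3.3G0195766 lies at 13226182 to 13228245 on the minus strand, and BdiBd21-3.3G0195800 follows 5.777 kb later at 13234023 to 13236152, also on the minus strand. BdiBd21-3.3G0195901 comes 1.683 kb further on, at 13237836 to 13239721 on the minus strand. BdiBd21-3.3G0196000 is the single member on the plus strand, at 13242998 to 13244887, after a gap of 3.276 kb. A gap of 40.597 kb separates these 4 from BdiBd21-3.3G0196500 at 13285485 to 13287725 on the minus strand. The genes are called below by the part of the identifier after the line name, and the coordinates are copied from the deposited table, for which no genome build is stated in the sources at hand. The listed length equals the span from start to end for all 5 members, so no intron is visible in their gene models, and 25.0% of all genes in the table have this form. Of the other 8 aromatic, tyrosine, tryptophan or DOPA decarboxylases in the table, 5 have this form too.

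**Figure D1:**
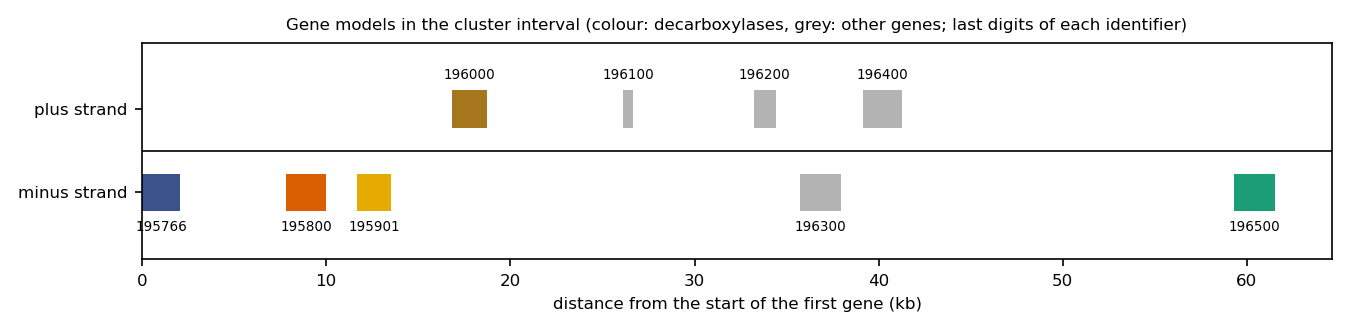
Gene models of the cluster interval drawn to scale on the plus and minus strands, with distance in kb from the start of the first gene on the horizontal axis. Coloured boxes are the 5 decarboxylases and grey boxes are the 4 other genes, which lie between 3G0196000 and 3G0196500.

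The map of the interval shows that the 40.597 kb gap is not empty of gene models. It holds 4 other genes, of which 3G0196100, 3G0196200 and 3G0196400 had no count in any of the 12 libraries, and 3G0196300 had 54 counts over all libraries together. None of them passed the filter. On the outer sides, 3 genes were examined in each direction, and 5 of these 6 did not pass it. The exception was 3G0195733, which has no description and lies next to 3G0195766. Roots held 4.70 ± 0.245 CPM of it at week 4 and 2.72 ± 0.671 CPM at week 2, and shoots held 12.7 ± 2.58 CPM at week 4 and 6.96 ± 0.905 CPM at week 2. CPM are counts per 1e6 of the library size after TMM scaling. Errors on CPM and on shares are SD over n = 3 libraries throughout, and errors on log2 differences and fold changes are SE. Apart from 3G0195733, the decarboxylases stood among neighbours with few or no counts. Further out on the same chromosome, 3G0192500, described as a tryptophan synthase beta chain, ends 152.57 kb before the cluster. A pair of polyphenol oxidase genes, 3G0199700 and 3G0200300, start 189.059 and 220.894 kb after it.

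Library totals ranged from 17261299 to 24186744 counts. The tissue labels were checked with fixed markers. Genes described as chlorophyll a-b binding summed to between 1119 and 7332 CPM in roots and between 63229 and 86379 CPM in shoots. Within roots the sum was 6411 to 7332 CPM at week 4 and 1119 to 2299 CPM at week 2, and its part in the root comparisons was not tested. Genes described as Casparian strip membrane proteins, which mark the root endodermis, summed to 52.7 to 79.2 CPM in roots and 2.97 to 4.00 CPM in shoots. In whole organs, fewer cells of a type and less RNA per cell cannot be told apart. Replicate 1 of week 4 shoots stood apart from its group on the second principal component of all genes, at -18.4 against -87.4 and -113 for its fellows, with week 2 shoots on the positive side.

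All 5 genes were transcribed in both organs at both ages, and their highest levels lay in different groups. 3G0195766 was highest in week 4 shoots, 3G0196500 was high in both shoot groups and low in roots, and the 3 genes between them were lowest in week 2 shoots. In the test across all genes, 3G0195766 and 3G0195800 passed as higher at week 4 than week 2 in shoots. Of all genes, 14.5% did. The 2 calls held in 18 and 10 of 21 alternative settings. Both ended without replicate 1 of week 4 shoots or replicate 2 or 3 of week 2 shoots. No member passed between the ages in roots, against 18.8% of all genes. 3G0196500 was lower in roots than in shoots at both ages, as were 27.7% of all genes at week 2 and 28.5% at week 4. The values of each gene in every library follow.

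**Figure D2:**
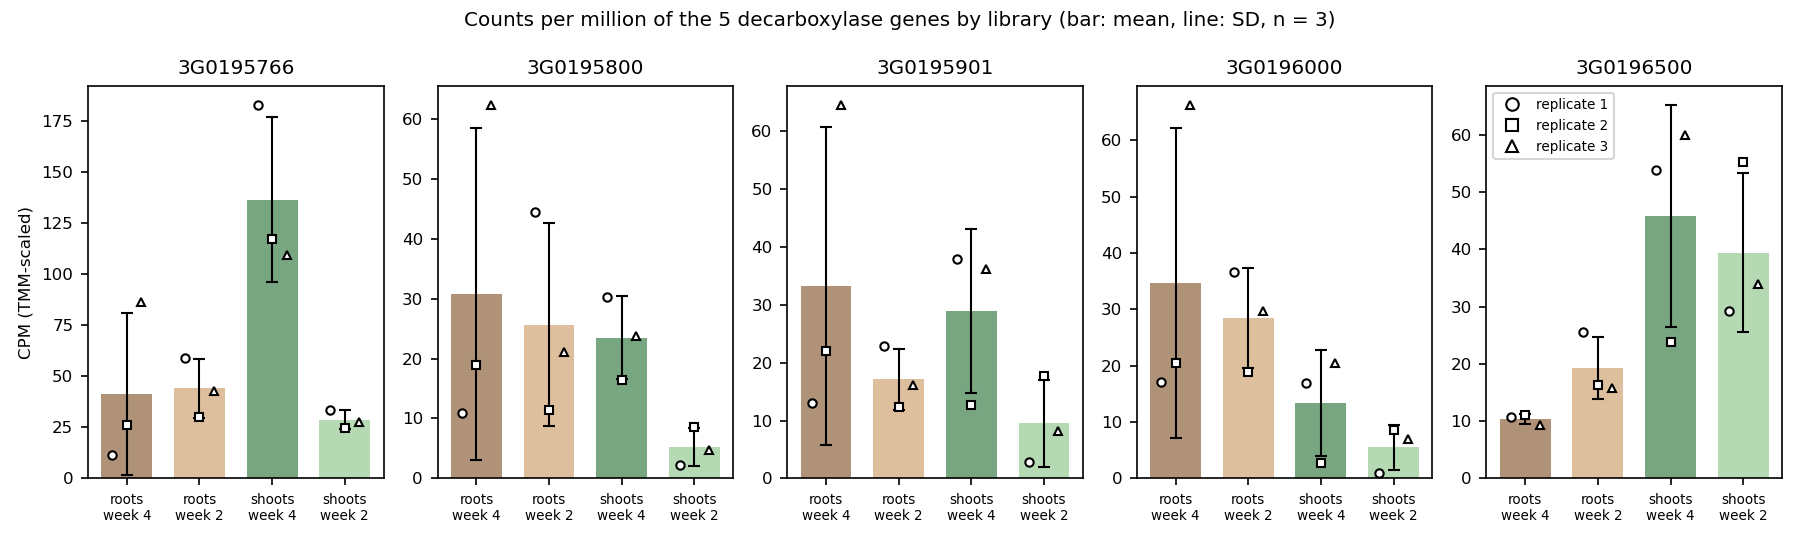
CPM of the 5 genes in every library, in 1 panel per gene with its own vertical axis from 0 and with week 4 roots, week 2 roots, week 4 shoots and week 2 shoots along the horizontal axis. Bars are group means, lines are SD (n = 3) and symbols are replicates. Replicate 3 of week 4 roots lies far above its fellows for the first 4 genes and not for 3G0196500.

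3G0195766, the first gene of the cluster, measured 11.7, 26.0 and 86.2 CPM in the 3 week 4 root libraries and 59.2, 30.3 and 42.9 CPM in week 2 roots. In shoots it measured 183, 117 and 109.6 CPM at week 4 and 33.6, 24.4 and 27.8 CPM at week 2. The 3 week 4 shoot libraries lie above every other library, and the week 4 root libraries span the whole range of the week 2 roots and beyond. Per kb of gene length, the mean level was 66.2 ± 19.6 CPM in week 4 shoots, the highest of any member in any group, and 13.9 ± 2.25 CPM in week 2 shoots.

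3G0195800 measured 10.9, 19.0 and 62.4 CPM in roots at week 4 and 44.5, 11.5 and 21.1 CPM at week 2. In shoots it measured 30.4, 16.4 and 23.8 CPM at week 4 and 2.26, 8.60 and 4.80 CPM at week 2. The 3 week 2 shoot libraries are the lowest of the 12, and the other 3 groups overlap one another.

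3G0195901 measured 13.1, 22.0 and 64.6 CPM in roots at week 4 and 22.8, 12.3 and 16.2 CPM at week 2. In shoots it measured 37.9, 12.6 and 36.3 CPM at week 4 and 2.76, 17.7 and 8.14 CPM at week 2. Every pair of groups overlaps, and replicate 2 of week 2 shoots reaches into the range of all the others.

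3G0196000, the plus-strand gene, measured 17.0, 20.6 and 66.3 CPM in roots at week 4 and 36.6, 18.9 and 29.7 CPM at week 2. In shoots it measured 16.9, 2.79 and 20.5 CPM at week 4 and 0.955, 8.55 and 6.95 CPM at week 2. Its root libraries lie above all week 2 shoot libraries, and the week 4 shoots overlap both.

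3G0196500, the distant gene, measured 10.8, 11.0 and 9.39 CPM in roots at week 4 and 25.5, 16.4 and 15.8 CPM at week 2. In shoots it measured 53.9, 23.8 and 59.9 CPM at week 4 and 29.2, 55.2 and 33.9 CPM at week 2. Week 4 roots are the lowest and do not overlap week 2 roots, and the 2 shoot groups overlap. It is the one member whose week 4 root libraries agree closely, at 10.4 ± 0.876 CPM.

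Levels were compared between the genes per kb of gene length. In week 4 roots the order was 3G0195766 at 20.0 ± 19.2 CPM per kb, 3G0196000 at 18.3 ± 14.5, 3G0195901 at 17.6 ± 14.6, 3G0195800 at 14.4 ± 13.0 and 3G0196500 at 4.64 ± 0.391. No neighbours in that order differ beyond their spread. In week 2 roots 3G0195766 led at 21.4 ± 7.03 CPM per kb, followed by 3G0196000 at 15.03 ± 4.72, 3G0195800 at 12.1 ± 7.96, 3G0195901 at 9.07 ± 2.83 and 3G0196500 at 8.58 ± 2.43. Here too, neighbours do not differ beyond their spread. In week 4 shoots 3G0195766 at 66.2 ± 19.6 CPM per kb stood above 3G0196500 at 20.5 ± 8.65 by more than their spread, while 3G0195901 at 15.3 ± 7.50, 3G0195800 at 11.0 ± 3.29 and 3G0196000 at 7.09 ± 4.96 came after with overlapping errors. In week 2 shoots 3G0196500 at 17.6 ± 6.18 CPM per kb and 3G0195766 at 13.9 ± 2.25 were the highest. They were followed, after a step larger than the spread, by 3G0195901 at 5.05 ± 4.00, 3G0196000 at 2.90 ± 2.12 and 3G0195800 at 2.45 ± 1.497.

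Roots were then compared with shoots at each age. At week 2, 3 of the 5 members passed the test, edgeR's quasi-likelihood F test with Benjamini-Hochberg adjustment over all 26463 genes at an adjusted p under 0.05, against 56.1% of all genes. Of these, 2 were higher in roots, as were 28.4% of all genes, and 1 was lower, as were 27.7%. 3G0195800 was higher in roots than in shoots by 2.29 ± 0.75 on the log2 scale (SE; adjusted p = 0.0249, edgeR), and 3G0196000 by 2.37 ± 0.87 (adjusted p = 0.0404, edgeR). 3G0196500 went the other way, at -1.04 ± 0.35 (adjusted p = 0.0253, edgeR). All 3 of these genes had root and shoot libraries that did not overlap, which held for 65.0% of all genes. 3G0195766 at 0.62 ± 0.59 and 3G0195901 at 0.84 ± 0.74 did not pass (adjusted p = 0.399 and 0.363, edgeR). The median over the 5 genes was 0.84, beside 0.01 over all genes. The call held in 17 of 21 alternative settings for 3G0195800, in 12 of 21 for 3G0196000 and in 18 of 21 for 3G0196500. Without replicate 1 of week 2 roots, 3G0195800 stood at 1.64 (adjusted p = 0.109, edgeR) and 3G0196000 at an adjusted p of 0.104, and without replicate 2 of week 2 shoots 3G0196500 stood at an adjusted p of 0.0945.

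At week 4, 2 of 5 members passed, against 60.9% of all genes, and both were lower in roots. Of all genes, 28.5% were lower and 32.4% higher. 3G0196500 stood at -2.14 ± 0.36 on the log2 scale (SE; adjusted p = 0.000381, edgeR), which is 0.226 times the shoot level, and 3G0195766 one of -1.73 ± 0.60 (adjusted p = 0.0292, edgeR). The libraries of the 2 organs did not overlap for either gene, as for 67.0% of all genes. 3G0195800 at 0.39 ± 0.70, 3G0195901 at 0.20 ± 0.71 and 3G0196000 at 1.37 ± 0.83 did not pass, with adjusted p of 0.654, 0.826 and 0.179 by edgeR. The 95% intervals of the 3 log2 fold changes ran from -1.17 to 1.95, from -1.40 to 1.79 and from -0.48 to 3.21, which hold differences of several fold. The median over the 5 genes was 0.20, beside 0.04 over all genes. The call of 3G0196500 held under all 21 alternative settings, with adjusted p between 1.57e-09 and 0.00301, and that of 3G0195766 under 16 of 21, with an adjusted p of up to 0.0994 without replicate 2 of week 4 roots.

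**Figure D3:**
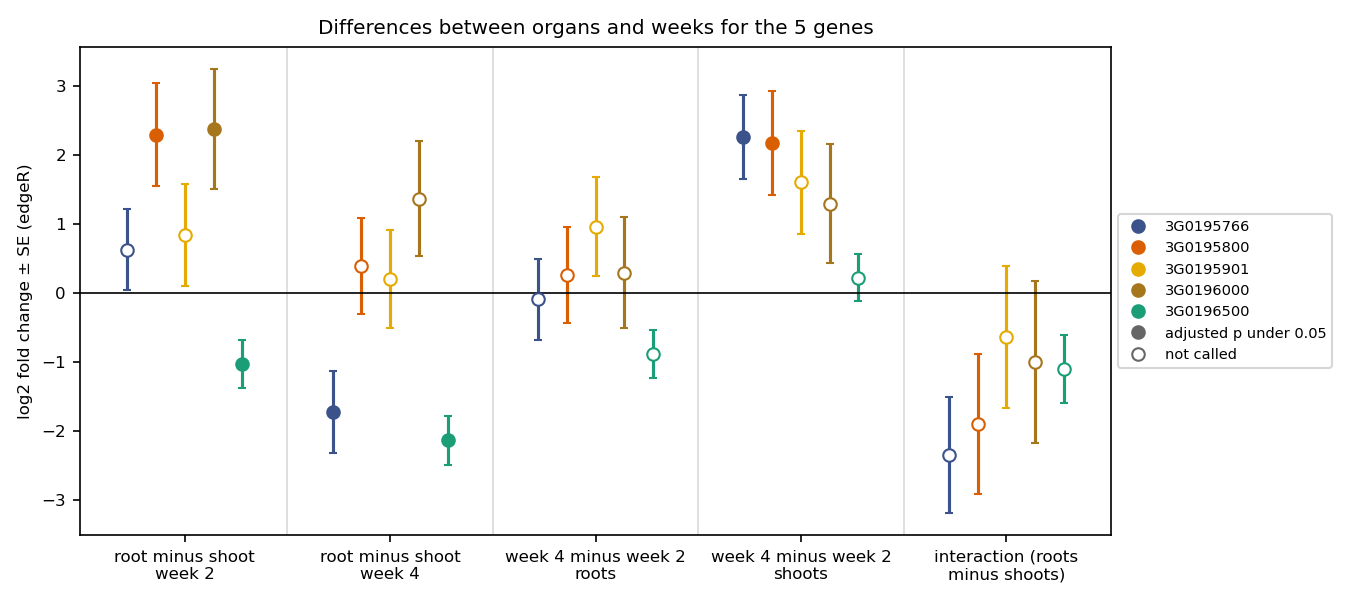
Log2 fold changes of the 5 genes in the 4 comparisons and the interaction (vertical axis, log2 scale), with SE as vertical lines. Filled symbols passed the edgeR test at an adjusted p under 0.05 and open symbols did not. 3G0196500 is below 0 in both comparisons of roots with shoots, and the first 4 genes lie above 0 in shoots at week 4 compared with week 2.

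Age was compared within each organ. In shoots, 2 of 5 members passed the test between week 4 and week 2, against 33.9% of all genes, and both were higher at week 4, as were 14.5% of all genes, with 19.4% lower. 3G0195766 stood at a log2 difference of 2.26 ± 0.61 (SE; adjusted p = 0.0182, edgeR), which is 4.78 times the week 2 level, and 3G0195800 one of 2.17 ± 0.75 (adjusted p = 0.0492, edgeR), which is 4.49 times. The week 4 and week 2 shoot libraries did not overlap for these 2 genes, as for 49.0% of all genes. 3G0195901 at 1.60 ± 0.74 and 3G0196000 at 1.29 ± 0.86 did not pass (adjusted p = 0.125 and 0.277, edgeR), and 3G0196500 was at 0.22 ± 0.34 (adjusted p = 0.658, edgeR) with a 95% interval from -0.53 to 0.97. The median over the 5 genes was 1.60, beside 0.00 over all genes. The call of 3G0195800 lay at the threshold and held in 10 of 21 alternative settings, with an adjusted p of up to 0.142. That of 3G0195766 held in 18 and ended without replicate 1 of week 4 shoots, the library that stood apart (1.95, adjusted p = 0.0585, edgeR), and without replicate 2 or replicate 3 of week 2 shoots (2.11 and 2.18, adjusted p = 0.0679 and 0.0573, edgeR).

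In roots, no member passed the test between week 4 and week 2, against 18.8% of all genes, of which 12.4% were higher and 6.35% lower at week 4. By unadjusted p under 0.05 there was 1, and DESeq2 called 1 and limma-voom 0. The member was 3G0196500, at -0.89 ± 0.35 (SE; adjusted p = 0.105, unadjusted p = 0.0288, edgeR), and its week 4 and week 2 root libraries did not overlap, as for 42.4% of all genes. The other 4 genes lay between -0.10 and 0.96 with SE of 0.59 to 0.81. Their 95% intervals reached from -1.41 to 1.21 for 3G0195766 and from -0.66 to 2.57 for 3G0195901 on the log2 scale. The median over the 5 genes was 0.26, beside 0.05 over all genes.

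Whether the age change differed between the organs was tested directly as an interaction, with the log2 change with age in shoots subtracted from that in roots. No member passed by edgeR, against 8.52% of all genes, 6.56% above 0 and 1.95% below. By unadjusted p under 0.05 there were 2, and DESeq2 called 0 and limma-voom 1. The estimates were -2.35 ± 0.84 for 3G0195766 (adjusted p = 0.117, unadjusted p = 0.0190, edgeR), -1.91 ± 1.01 for 3G0195800, -0.64 ± 1.02 for 3G0195901, -1.003 ± 1.17 for 3G0196000 and -1.11 ± 0.49 for 3G0196500 (adjusted p = 0.192, edgeR). All 5 were below 0, with a median of -1.11 beside 0.11 over all genes, and the 5 estimates share the same 12 libraries. The higher level of 3G0195766 and 3G0195800 in older shoots was therefore not shown to differ from their change in roots. For 3G0195766 this turned on replicate 3 of week 4 roots and on the tool. With limma-voom its interaction was -2.75 (adjusted p = 0.0368). Without that replicate its edgeR estimate was -3.49 (adjusted p = 0.00804, edgeR).

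Replicates of 1 group differed more for these genes than for most. The biological coefficient of variation that edgeR estimated was 49.0% for 3G0195766, 58.4% for 3G0195800, 59.9% for 3G0195901, 69.8% for 3G0196000 and 29.7% for 3G0196500. For the first 4, between 90.5% and 96.8% of all tested genes had a lower value, and for 3G0196500 73.4% did. Among genes within 0.5 of the same average log2 CPM, the share with a lower value was 97.6%, 97.1%, 97.4%, 98.2% and 90.9% for the 5 genes in chromosome order.

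The libraries that deviated did so for several neighbours at once. Replicate 3 of week 4 roots stood above the mean of replicates 1 and 2, at ratios of 4.59 for 3G0195766, 4.18 for 3G0195800, 3.68 for 3G0195901 and 3.53 for 3G0196000. For 3G0196500 the ratio in the same library was 0.862. In shoots the grouping was another one. Replicate 2 of week 4 shoots lay below the mean of its fellows, at ratios of 0.800 for 3G0195766, 0.605 for 3G0195800, 0.341 for 3G0195901, 0.149 for 3G0196000 and 0.418 for 3G0196500. Replicate 2 of week 2 shoots lay above the mean of its fellows for the last 4 genes, at 2.44, 3.24, 2.16 and 1.75, and at 0.796 for 3G0195766.

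**Figure D4:**
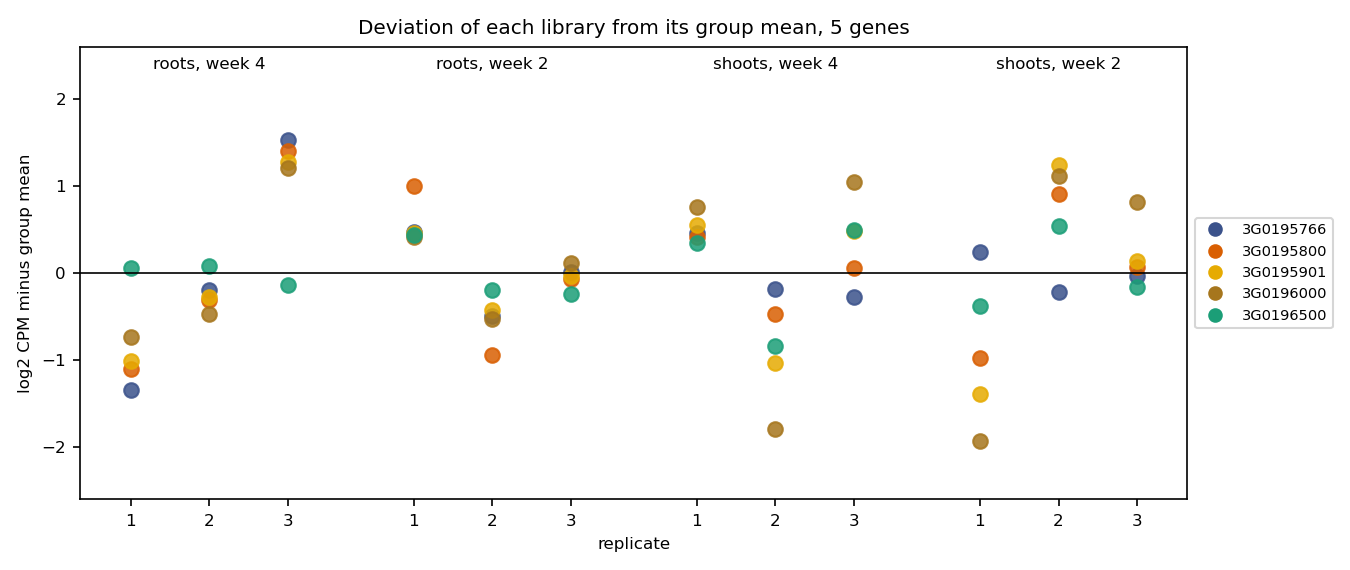
Deviation of each library from the mean of its group for the 5 genes (vertical axis, log2 CPM), with the libraries along the horizontal axis by group and replicate number. The first 4 genes move together in the root libraries while 3G0196500 stays near 0 in week 4 roots. In replicates 1 and 2 of week 2 shoots 3G0195766 deviates against the other 4. In the same replicates of week 4 shoots it deviates with them, and in replicate 3 against them.

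Deviations from the group means, on log2 CPM with a prior count of 2, were correlated between the genes as a description. Among 3G0195800, 3G0195901 and 3G0196000, Pearson's r was 0.954 to 0.977 over the 6 root libraries and 0.874 to 0.972 over the 6 shoot libraries. 3G0195766 followed these 3 genes in roots, with r of 0.943 to 0.996, and did not over the 6 shoot libraries pooled, with r of -0.206 to -0.163. In replicates 1 and 2 of week 4 shoots it deviated with 3G0195800, at 0.46 beside 0.41 and -0.18 beside -0.47. In the same replicates of week 2 shoots it deviated against it, at 0.24 beside -0.98 and -0.21 beside 0.90. 3G0196500 showed the reverse arrangement in the pooled values, with r of 0.00753 to 0.276 in roots and 0.776 to 0.884 in shoots. Its root value joins ages that differed. In week 2 roots it deviated with 3G0195800, at 0.44 beside 1.00 in replicate 1 and -0.20 beside -0.94 in replicate 2. In replicate 3 of week 4 roots it stood at -0.14 beside 1.41. The points share their libraries and group means, and in roots replicates 1 and 3 of week 4 hold the extremes of the first 4 genes. The genes share a best-match description, and how the authors counted reads that match several genes is not stated in the sources at hand. The part of such reads in these correlations was not tested.

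The summed level of the 5 genes does not depend on how counted reads were divided among them, but it would on any reads left out for matching several genes, which was not tested. In roots it was 63.5, 98.5 and 289 CPM at week 4 and 189, 89.3 and 126 CPM at week 2. In shoots it was 322, 173 and 250.1 CPM at week 4 and 68.8, 114 and 81.6 CPM at week 2. The 3 week 4 shoot libraries lie above the 3 week 2 shoot libraries, and the root groups overlap each other and both shoot groups. Roots averaged 150.3 ± 121 CPM at week 4 and 135 ± 50.2 CPM at week 2, and shoots 248 ± 74.8 CPM at week 4 and 88.3 ± 23.5 CPM at week 2.

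The make-up of this sum differed between the groups. In roots 3G0196500 held 10.5 ± 6.89% of the cluster's counts at week 4 and 14.8 ± 3.08% at week 2, and in shoots 18.2 ± 5.25% at week 4 and 44.1 ± 3.63% at week 2. Its share was 41.5% to 48.2% in the 3 week 2 shoot libraries and at most 24.0% in the other 9. 3G0195766 held 24.9 ± 5.89% of root counts at week 4 and 33.1 ± 1.52% at week 2, and 56.2 ± 12.0% of shoot counts at week 4 and 34.8 ± 13.8% at week 2. 3G0196000 held 23.6 ± 3.03% and 21.4 ± 2.09% in week 4 and week 2 roots, against 5.02 ± 3.31% and 5.79 ± 3.85% in week 4 and week 2 shoots. The root and shoot libraries do not overlap in the share of this gene.

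Shares of 3G0195800 and 3G0195901 were also higher on average in roots. In roots 3G0195800 held 19.4 ± 2.21% at week 4 and 17.7 ± 5.41% at week 2, and in shoots 9.47 ± 0.0417% at week 4 and 5.56 ± 2.13% at week 2. Its share was 12.9% to 23.6% in the 6 root libraries and 3.29% to 9.51% in the 6 shoot libraries, which do not overlap. 3G0195901 held 21.8 ± 0.982% of root counts at week 4 and 12.9 ± 0.817% at week 2, which do not overlap, and 11.2 ± 3.63% of shoot counts at week 4 and 9.81 ± 5.71% at week 2. In replicate 3 of week 4 roots, where the sum was highest among roots, 3G0196500 held 3.25% (exact binomial 95% interval 2.84% to 3.70%, counting error only). In the other 2 libraries of that group it held 17.0% and 11.2%.

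**Figure D5:**
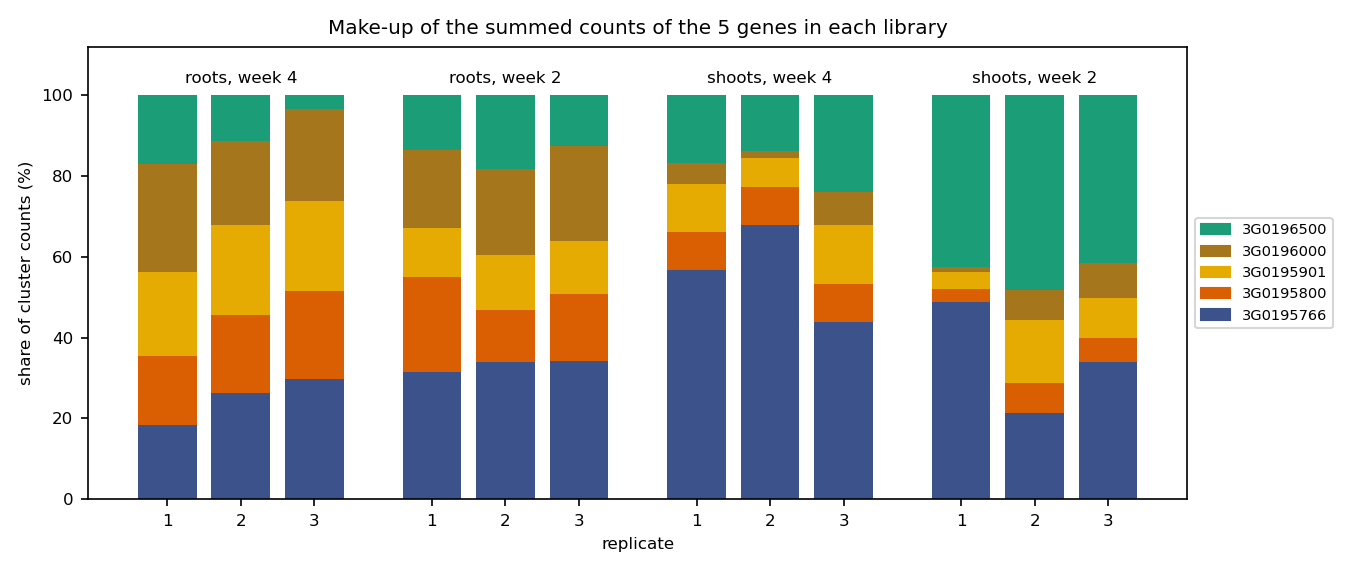
Share of each of the 5 genes in the cluster's summed counts (vertical axis, percent), in 1 stacked bar per library, grouped as week 4 roots, week 2 roots, week 4 shoots and week 2 shoots. 3G0196500 fills 41.5% to 48.2% of the bars of week 2 shoots, and 3G0195766 fills 43.8% to 67.8% of those of week 4 shoots.

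The cluster was set beside the rest of its family. The table holds 13 aromatic, tyrosine, tryptophan or DOPA decarboxylases in all, and the 5 clustered genes supplied 25.5%, 31.1% and 55.2% of the family's counts in week 4 roots and 34.2%, 22.3% and 29.1% in week 2 roots. In shoots they supplied 83.3%, 69.9% and 74.6% at week 4 and 53.8%, 63.1% and 57.2% at week 2. The week 4 shoot libraries are the highest, and replicate 3 of week 4 roots is the only root library that reaches the range of week 2 shoots. Of the 8 others, 5 were tested, and all 5 passed in roots against shoots at both ages, with 3 higher and 2 lower, beside 56.1% of all genes at week 2 and 60.9% at week 4. The most abundant, 2G0654700, measured 142 ± 13.3 CPM in week 4 roots and 234 ± 27.1 CPM in week 2 roots. It had no count in week 4 shoots, so with the floor of 3 counts over that group its week 4 root level was at least 2747-fold higher. 1G0383800 measured 13.3 ± 1.66 and 7.29 ± 2.65 CPM in week 4 and week 2 roots, against 73.2 ± 11.2 and 59.4 ± 3.74 CPM in week 4 and week 2 shoots. In roots between week 4 and week 2, 1G0383800 was higher and 2G0654700 was lower, and in shoots 2G0654700, with 0 counts at week 4 and 7 at week 2, was lower, beside 18.8% of all genes called in roots and 33.9% in shoots. With 1 library left out, 0 to 3 of these genes passed in roots, with 0 without replicate 1 of week 4 roots and 1 without replicate 2 of week 4 roots or replicate 1 or 2 of week 2 roots, and 0 passed in shoots without replicate 2 of week 2 shoots. The adjusted p of 1G0383800 in roots reached 0.0702 and that of 2G0654700 in roots 0.0701 (edgeR). No clustered gene was confined to 1 organ in the way of 2G0654700. Only 2G0028900 outside the cluster carries the same best-match description, and it had 8 counts in all.

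Candidates for a similar pattern were the 20939 genes outside the cluster whose average log2 CPM reached 1, so fellow members could not be named. Those whose pattern over the 12 libraries was most like each member were found by Pearson's r of log2 CPM. For 3G0195766 these were 2G0421900, described as an acyl transferase (r = 0.971), and the receptor-type kinases 2G0632400 (r = 0.960) and 4G0151300 (r = 0.952). For 3G0195800 they were a formin-like gene, 3G0787000 (r = 0.932), a probable clathrin assembly gene, 2G0469300 (r = 0.929), and the uncharacterised 1G0878300 (r = 0.913). For 3G0195901 the values were lower, with a uclacyanin, 3G0124100, at 0.887, the leucine-rich repeat gene 3G0445000 at 0.868 and a fucosyltransferase, 4G0576500, at 0.861. For 3G0196000 they were 3G0490900, a probable 4-coumarate-CoA ligase (r = 0.939), and the receptor kinases 3G0702100 (r = 0.929) and 3G0013700 (r = 0.926). For 3G0196500 they were a chitinase, 5G0184600 (r = 0.949), the ribosomal RNA-processing gene 3G0744200 (r = 0.943) and 2G0012000, which has no description (r = 0.942). No gene was named for more than 1 member. The 12 points fall into 4 groups, so these values describe the group pattern together with the replicates.

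Genes upstream of the decarboxylases were taken from the descriptions. Tryptophan synthesis had 14 genes, all tested, and includes 3 indole-3-glycerol phosphate lyases that matched by a synonym and are of a type that in maize serves benzoxazinoid defence compounds. In shoots, 8 of the 14 were higher and 3 lower at week 4 than at week 2, with a median log2 fold change of 1.24 beside 0.00 over all genes, and in roots 1 was higher and 1 lower. Over all genes 33.9% passed in shoots and 18.8% in roots. The higher ones included genes described as anthranilate synthase alpha and beta subunits, anthranilate phosphoribosyltransferase, indole-3-glycerol phosphate synthase and both tryptophan synthase chains. They also included the lyase gene 1G0071500, with the largest log2 difference among them at 2.57. Its call was lost in 1 of 12 runs with a library left out. The 3 lower ones were the lyase gene 1G0071600, another anthranilate synthase alpha subunit gene, 1G0042800, at a log2 difference of -1.22, and another indole-3-glycerol phosphate synthase gene, 5G0162900, at -0.52. The anthranilate synthase alpha subunit gene 1G0905900, whose enzyme commits chorismate to tryptophan, averaged 364 ± 95.4 CPM in shoots at week 4 and 113 ± 47.2 CPM at week 2, a log2 difference of 1.69 ± 0.27 (SE; adjusted p = 0.00130, edgeR). The tryptophan synthase alpha chain gene 1G0736800 averaged 342 ± 82.3 CPM in shoots at week 4 and 98.5 ± 34.8 CPM at week 2. The tryptophan synthase beta chain gene 3G0192500, the most abundant of the list and the one 152.57 kb from the cluster, averaged 594 ± 123 CPM in shoots at week 4 and 194 ± 64.4 CPM at week 2 (1.61 ± 0.21, adjusted p = 0.000454, edgeR). Its level was 285 ± 32.8 CPM in week 4 roots and 257 ± 2.53 CPM in week 2 roots, and its interaction passed at -1.46 ± 0.30 (adjusted p = 0.0132, edgeR).

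Between organs, 3 of the 14 tryptophan genes were higher and 11 lower in roots at week 4, and 3 were higher and 5 lower at week 2. Over all genes 60.9% passed at week 4 and 56.1% at week 2, so the week 2 count is near that of all genes. In the interaction, 1 passed above 0 and 5 below, beside 8.52% of all genes. This total of 6 was 3 without replicate 1 or replicate 2 of week 4 roots and 10 with DESeq2. In each comparison the largest called difference of the list was that of a lyase gene. In shoots 1G0071600 had 0 counts at week 4 and 70 at week 2, at least 22.6-fold lower at week 4, and 3G0229200 was lower in roots at week 2 with a log2 difference of -4.35 ± 0.39 (adjusted p = 3.96e-06, edgeR). Tyrosine synthesis, which leads to the precursor of tyramine and DOPA, had 6 tested genes of 8. The list joins genes described as chorismate mutases and as arogenate dehydrogenases, and those named below are all chorismate mutases. In roots against shoots 4 were higher and 0 lower at week 2, and 4 were higher and 1 lower at week 4, beside 56.1% of all genes called at week 2 and 60.9% at week 4, with 28.4% and 32.4% of all genes higher. Between week 4 and week 2 in shoots 1 was higher and 1 lower, beside 33.9% of all genes, and the total was 1 without replicate 1 of week 4 shoots or replicate 2 of week 2 shoots and ranged up to 3. In roots none passed by edgeR, with 4 at an unadjusted p under 0.05, beside 18.8% of all genes, and DESeq2 called 0 and limma-voom 2. Its most abundant gene, the chorismate mutase gene 2G0649900, averaged 63.7 ± 8.78 CPM in week 4 roots and 33.6 ± 2.703 CPM in week 4 shoots. In shoots the chorismate mutase gene 3G0078400 was higher at week 4, at 17.1 ± 1.75 CPM against 11.3 ± 1.04 CPM at week 2. The largest difference between organs was that of another chorismate mutase gene, 3G0484700, at 2.31 ± 0.36 at week 2 and 2.33 ± 0.34 at week 4. No tyrosine gene passed in the interaction by edgeR, with 1 at an unadjusted p under 0.05.

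Genes described as acting on the amines or on compounds made from them were counted in the same way. The list for tryptamine and serotonin use had 8 tested genes of 11, all but 1 described as serotonin N-acetyltransferases or acetylserotonin O-methyltransferases, and the remaining 1 as a flavone O-methyltransferase that matched by a synonym. Of these, 3 were higher and 5 lower in roots than in shoots at both ages, beside 56.1% of all genes called at week 2 and 60.9% at week 4. Between week 4 and week 2, 3 were higher and 0 lower in roots, 0 were higher and 2 lower in shoots, and 2 passed above 0 in the interaction, beside 18.8%, 33.9% and 8.52% of all genes. The shoot count was 1 whichever of the 6 shoot libraries was left out, and also without replicate 1 or 2 of week 4 roots. The interaction count was 1 whichever week 4 shoot library was left out, and without replicate 1 or 2 of week 4 roots or replicate 2 or 3 of week 2 roots. Its most abundant gene, the acetylserotonin O-methyltransferase gene 1G0618100, whose enzyme type makes melatonin, averaged 21.3 ± 5.99 CPM in roots at week 4 and 5.22 ± 2.23 CPM at week 2 (2.03 ± 0.32, adjusted p = 0.00280, edgeR). In shoots it averaged 136 ± 29.2 CPM at week 4 and 205 ± 33.1 CPM at week 2 and did not pass, and its interaction passed at 2.62 ± 0.44 (adjusted p = 0.00672, edgeR).

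Copper amine oxidases, which oxidise amines to aldehydes, had 6 tested genes of 6. They include 5G0170000, whose best match is an F-box protein and which entered the list by a copper amine oxidase domain. Its model overlaps that of the amine oxidase gene 5G0170100. In roots against shoots 2 were higher and 2 lower at week 2, and 3 were higher and 3 lower at week 4, beside 56.1% and 60.9% of all genes. Between week 4 and week 2, 1 was lower in roots, and in shoots 1 was higher and 1 lower, beside 18.8% and 33.9% of all genes. The higher one in shoots was 5G0170000, so no gene with an amine oxidase as best match was called higher. The shoot count was 0 without replicate 2 or 3 of week 4 shoots or replicate 1 of week 2 shoots, and 1 without replicate 2 or 3 of week 2 shoots. The gene lower in roots was 1G0313900, at 2.22 ± 0.101 CPM at week 4 and 5.43 ± 0.212 CPM at week 2, and it was also the 1 gene that passed in the interaction, beside 8.52% of all genes. That call ended without replicate 1 or 2 of week 4 roots, replicate 2 of week 2 roots or any one of the week 2 shoot libraries. The most abundant, 5G0170100, was lower in week 4 shoots, at 41.3 ± 6.77 CPM against 62.4 ± 3.64 CPM at week 2. The largest difference between organs was that of 5G0057900, which averaged 1.60 ± 1.51 CPM in week 4 roots and 124 ± 10.5 CPM in week 4 shoots.

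Polyphenol oxidases, which oxidise diphenols such as DOPA and dopamine to quinones, had 5 tested genes of 6. At both ages 2 were higher and 3 lower in roots than in shoots, beside 56.1% of all genes called at week 2 and 60.9% at week 4. Between week 4 and week 2, 1 was lower in roots and 3 were lower in shoots, with none higher in either, beside 18.8% and 33.9% of all genes. The root count, near that of all genes, was 0 whichever of the 6 root libraries was left out, and 2 without replicate 1 of week 4 shoots or replicate 1 or 3 of week 2 shoots. The shoot count ranged from 1, without replicate 3 of week 4 shoots, to 4. The most abundant, 3G0200300, the more distant of the pair downstream of the cluster, averaged 164 ± 51.3 CPM in shoots at week 4 and 423 ± 182 CPM at week 2 (-1.37 ± 0.35, adjusted p = 0.0188, edgeR). It had 0 counts in week 4 roots against 9366 in week 4 shoots, at least 4010-fold lower. 2G0666400 was the gene lower in roots, at 63.8 ± 6.28 CPM at week 4 against 92.7 ± 7.93 CPM at week 2, a call that held with 6 of the 12 libraries left out in turn. 2G0667800 had the largest called change in shoots, with 3 counts at week 4 and 53 at week 2, a week 2 over week 4 ratio of 17.1 (95% exact counting interval 5.54 to 85.4). No polyphenol oxidase passed in the interaction by edgeR, with 2 at an unadjusted p under 0.05.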

How the data were processed

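RNA from roots and shoots at week 2 and week 4 was measured by poly-T selected RNA-seq in 12 libraries, and the labels state that different plants were used for each replicate. The deposited file gives unscaled whole-number counts of reads for each gene and library, as the authors made them, with gene positions and lengths. The submitters' processing notes name HISAT2 2.0.5, featureCounts 1.5.0-p3 and HTSeq 0.6.1, with no role or order. Per the labels' protocols the preparation was directional or non-directional, so the strand setting is open, and the treatment of reads matching several genes was not given in the sources used here. Columns were matched to samples by tissue, week and the replicate number written out in the titles. For shoots of week 4, the titles also hold a short code that ends in 1 in every case, so which of these samples a week 4 shoot column holds rests on the written number alone, while its group is not in doubt.

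The analysis used edgeR 4.0.16 under R 4.3.3. Low genes were removed by filterByExpr (minimum count 10, minimum total 15), and the rest were scaled with TMM and fitted in 1 model with 4 group means over all 12 libraries, with robust quasi-likelihood F tests, two-sided. The p-values were adjusted by the Benjamini-Hochberg method over all 26463 genes, and an adjusted p under 0.05 counts as passed. Log2 fold changes carry a prior count of 0.125, and each SE was derived from the fold change and its F statistic (absolute value over root F). The code was tested on simulated data. A fold against a group without counts uses a floor of 3 counts over the group; intervals and floors cover counting error only. Figures were drawn with matplotlib 3.10.9.

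The alternatives were RLE and upper-quartile scaling, no low-count filter, CPM of at least 1 in 3 libraries, DESeq2 1.42.0, limma-voom (limma 3.58.1), non-robust edgeR, a model of only those libraries being compared, a block for replicate number and each library left out in turn. The members, lists and rules were chosen with earlier results of these data known. Named genes are the 5 members, the genes between and next to them (3 on each side) and the other decarboxylases. Also named are the 3 non-member genes with the most similar pattern for each member. The most abundant and the largest called gene of each keyword list are named too. The tryptophan synthase alpha chain gene, both anthranilate synthase genes, the indole-3-glycerol phosphate synthase gene and the lyase gene 1G0071500 were named after their values were seen. A gene table of another line, Bd21, matched 0 of the 5 members, and no sequence is shown.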

Additional observations from a re-analysis of the deposited data

How the results depend on the processing

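Most values for the 5 genes kept their direction and their side of the threshold, but most had not passed to begin with. Of the calls, only that of 3G0196500 for roots against shoots at week 4 held in all 21 alternative settings. The others held in 10 to 18 of 21. Over the scalings, filters and tools, 209 values kept both, 7 no longer passed, 3 newly passed and 1 changed sign. With each library left out in turn, 260 kept both, 28 no longer passed, 2 newly passed and 10 changed sign, all 10 in values that had not passed. For roots against shoots at week 2, the call of 3G0196000 ended without the low-count filter and that of 3G0195800 with limma-voom. The number of members that passed fell to 1 for roots against shoots at week 4 without the low-count filter and with the compared libraries alone. It was 1 for week 4 against week 2 in roots with the compared libraries alone and with DESeq2, and 1 for the interaction with limma-voom, where 3G0195766 stood at -2.75. In shoots between week 4 and week 2 it was 1 without the low-count filter and with limma-voom. Leaving out 1 library gave 1 to 3 members for roots against shoots at week 2, 1 to 2 at week 4, 0 to 1 in roots and 0 to 2 in shoots between the ages, and 0 to 1 in the interaction. In shoots 0 remained without replicate 1 of week 4 or without replicate 2 or replicate 3 of week 2.

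Deviations of same-numbered libraries correlated at -0.115 to 0.179 over 12 pairs, beside -0.159 to 0.174 over 24 pairs of other numbers. In 5 of 12 comparisons a library correlated best with its own number in the other group. Between roots and shoots the same-number values were 0.179, 0.0697 and 0.111 at week 2 and -0.115, 0.0447 and -0.106 at week 4. The labels state different plants for each replicate, which does not say whether roots and shoots of 1 number shared plants. Pairing was therefore not settled. With the replicate number as a block, the number of members that passed in shoots between week 4 and week 2 was 1, with 3G0195800 at 2.08 (adjusted p = 0.0801, edgeR). The block moved no other count of members.

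Sign changes concerned log2 fold changes that had not passed. For roots against shoots at week 4, 3G0195901 was at -0.0034 with limma-voom and between -0.72 and 0.58 with a library left out, and 3G0195800 between -0.65 and 0.79. Between week 4 and week 2 in roots, 3G0195766 lay between -1.23 and 0.34, 3G0195800 between -0.78 and 0.92, and 3G0196000 between -0.60 and 0.61. In shoots 3G0196500 lay between -0.063 and 0.50. Shares computed per kb of gene length differed by more than the spread between replicates for 3G0195800 in week 4 shoots at 9.20%, and for 3G0195901 in week 4 and week 2 roots at 23.2% and 13.9%. The cause of these shifts was not tested, apart from the shares, where the gene lengths set them. With 3 libraries a group and this spread, the intervals printed with the comparisons set what depth and replication allow.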
